A study of Drosophila melanogaster with 3 samples.

Results

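The aminoacyl-tRNA synthetase genes were read in ChIP-seq peak lists of the chromatin protein Hmr. They were the protein-coding genes whose symbol is a three-letter amino acid name followed by RS or RS-m, with GluProRS added. They numbered 33 of the 13945 protein-coding genes on the 6 chromosomes of the lists. By symbol alone, the 15 with -m are called mitochondrial here and the 18 without it cytoplasmic. GlnRS, GlyRS, HisRS, LysRS and ThrRS had no -m gene among the 33. Whether such an enzyme also works in mitochondria cannot be read from its symbol, so the classes may not part the compartments cleanly. The samples formed 1 group of 3 biological replicates: whole Drosophila melanogaster embryos of both sexes, aged 0 to 24 h, from 1 transgenic strain (Hmr-GFP) that stably carries Hmr with GFP at its C terminus. Chromatin was sonicated to 200 to 800 bp and precipitated with an antibody against GFP, so what was mapped is the tagged protein, and the driver of the transgene and the state of the endogenous Hmr gene are not stated in the labels. Each replicate had 1 relaxed list of 30000 entries, a further relaxed list of 30000 entries came from the pooled replicates, and an optimal list of 8131 reproducible peaks equalled the 8131 strongest pooled entries. No read counts were among these files, so depth is unknown, and a whole embryo mixes all its cell types, so a weak peak and a peak in few cells cannot be told apart.

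Aminoacyl-tRNA synthetases load each tRNA with its amino acid, which is the step that fixes the genetic code before the ribosome reads it. Flies, like other animals, translate in the cytoplasm and inside mitochondria, and most mitochondrial enzymes come from nuclear genes of their own. GluProRS joins the enzymes for glutamate and proline in 1 protein and sits in the multi-synthetase complex, which also holds the scaffold proteins AIMP1, AIMP2 and AIMP3. In humans, GlyRS and LysRS serve both compartments from 1 gene. These genes are active in nearly all cells. Hmr, the product of Hybrid male rescue, binds chromatin together with Lhr and is known for its part in the lethality of hybrids between fly species.

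The DNA at 6 of the optimal summits and at 1 site found by replicates alone is shown first, because these are the peaks on which the results turn. All are of the dm6 build (Release 6 sequence as held by RefSeq), 5′ to 3′ on the strand of the synthetase gene, reach at most 100 bases to each side of the summit and stop where an exon begins. Capitals mark matches to any of 6 short sequences searched on both strands: the DRE (TATCGATA), the M1BP sequence (GGTCACACT), an E-box (CAGCTG), the Myc E-box (CACGTG), the amino acid response element (TGATGNAA) and a TATA box (TATAAA). IleRS and ThrRS, on the plus strand at chr3L:22288403-22288603 and chr2L:12103452-12103652, and GluProRS, on the minus strand at chr3R:23958433-23958633, had the strongest peaks between genes. The 3 mitochondrial genes with a peak were ArgRS-m (plus strand, chr3R:7886834-7887034), LeuRS-m (plus strand, chr3L:4825688-4825852) and ProRS-m (minus strand, chr3L:2651870-2652070). TrpRS (minus strand, chr3R:9266905-9267018) is shown around the summit of replicate 3, since it has no optimal peak.
IleRS: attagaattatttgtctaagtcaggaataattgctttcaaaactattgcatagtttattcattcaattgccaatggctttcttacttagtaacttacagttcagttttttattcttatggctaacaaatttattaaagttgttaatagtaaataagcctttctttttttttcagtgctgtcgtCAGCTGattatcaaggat
ThrRS: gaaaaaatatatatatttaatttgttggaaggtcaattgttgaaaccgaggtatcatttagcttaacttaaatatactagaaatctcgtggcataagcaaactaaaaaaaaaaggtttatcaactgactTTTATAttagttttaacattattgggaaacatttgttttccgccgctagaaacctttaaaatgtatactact
GluProRS: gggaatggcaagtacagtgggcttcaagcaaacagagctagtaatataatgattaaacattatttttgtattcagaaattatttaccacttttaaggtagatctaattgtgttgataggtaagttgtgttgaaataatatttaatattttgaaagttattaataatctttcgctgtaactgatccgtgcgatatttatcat
ArgRS-m: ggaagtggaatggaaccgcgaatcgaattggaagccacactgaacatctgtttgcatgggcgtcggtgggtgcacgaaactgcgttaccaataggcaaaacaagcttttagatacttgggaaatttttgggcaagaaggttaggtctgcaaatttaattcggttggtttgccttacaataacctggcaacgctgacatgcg
LeuRS-m: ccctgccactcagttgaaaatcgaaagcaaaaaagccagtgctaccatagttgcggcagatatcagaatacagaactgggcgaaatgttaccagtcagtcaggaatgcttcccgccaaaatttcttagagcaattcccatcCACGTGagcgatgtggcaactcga
ProRS-m: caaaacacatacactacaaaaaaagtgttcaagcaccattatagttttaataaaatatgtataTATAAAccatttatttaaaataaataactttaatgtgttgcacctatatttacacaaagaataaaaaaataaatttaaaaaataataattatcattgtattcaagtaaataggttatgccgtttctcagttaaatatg
TrpRS: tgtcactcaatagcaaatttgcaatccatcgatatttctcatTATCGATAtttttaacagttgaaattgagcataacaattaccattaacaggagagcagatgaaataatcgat
Counted from the first base shown, the IleRS stretch holds CAGCTG from base 184, the ThrRS stretch holds the reverse complement of the TATA box from base 130, and the ProRS-m stretch holds TATAAA from base 64. The LeuRS-m stretch holds CACGTG from base 142, which is 70 bp from the summit base. The TrpRS stretch holds TATCGATA from base 43, and the summit base of replicate 3, base 48, lies inside this match. The summit of replicate 1, 85 bp upstream of the start, lies outside the match, which begins 72 bp upstream. None of the 6 sequences was present in the GluProRS and ArgRS-m stretches. The stretch around the replicate 3 summit of GlnRS, another site without a pooled entry, is not shown and held none either. A match is a description of the letters and does not show that a factor binds there.

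An optimal summit lay within 250 bp of an annotated start in 11 of the 33 synthetase genes (33.3%, exact Clopper-Pearson 95% interval 18.0% to 51.8%), beside 23.4% of all protein-coding genes. The interval, which like the others covers counting error only, includes the share over all genes. Among cytoplasmic enzymes the count was 8 of 18 (44.4%, interval 21.5% to 69.2%). These included GlyRS, HisRS and ThrRS, which have no -m gene, while GlnRS and LysRS, also without one, had no optimal summit. Among mitochondrial enzymes it was 3 of 15 (20%, interval 4.33% to 48.1%). In the relaxed pooled list 12 of 33 genes (36.4%) had an entry of any rank at a start, which is close to the 36.3% over all genes, and the gene added was CysRS. The place of the count above or below the share over all genes depended on the window and on single replicates. At 100 bp it was 3 of 33 (9.09%), below the 13.4% over all genes. Leaving out 1 replicate kept the optimal list, which is drawn from all 3, and also asked for a match in both remaining replicates. By this rule 11 genes (33.3%) were left without replicate 1, against 18.5% of all genes. Without replicate 2 it was 5 (15.2%), below the 18.2% over all genes. Without replicate 3 it was 5 again, just below the 16.0% over all genes. In both cases those were ArgRS-m, GluProRS, GlyRS, IleRS and ThrRS.

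The replicates were then read separately, each by the 8131 entries of highest signal in its own list. In replicate 1, 7 of 33 synthetase genes (21.2%) had such an entry at a start, beside 22.4% of all protein-coding genes. In replicate 2 the count was 13 of 33 (39.4%), beside 23.5%. In replicate 3 it was again 13 of 33, beside 27.6%. Cytoplasmic genes were matched more often than mitochondrial ones in each replicate, with 27.8% against 13.3% in replicate 1, 44.4% against 33.3% in replicate 2 and 55.6% against 20% in replicate 3. The mean share was 42.6% ± 14.0 (SD, n = 3) for cytoplasmic and 22.2% ± 10.2 (SD, n = 3) for mitochondrial genes, and the mean difference was 20.4 percentage points ± 13.3 (SD, n = 3). An exact two-sided sign-flip permutation test over the 3 replicates gave p = 0.25, the smallest value it allows, so this design could not pass the usual threshold. Every replicate reads the same genes, so the SD and this test cover how the difference repeats between replicates. They do not measure the spread between genes of a class. The labels call the replicates biological but do not name separate cultures or collections. With the pooled list left aside, 13 of 33 genes (39.4%) had a strong entry in at least 2 replicates, 9 cytoplasmic and 4 mitochondrial, beside 24.4% of all protein-coding genes.

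**Figure D1:**
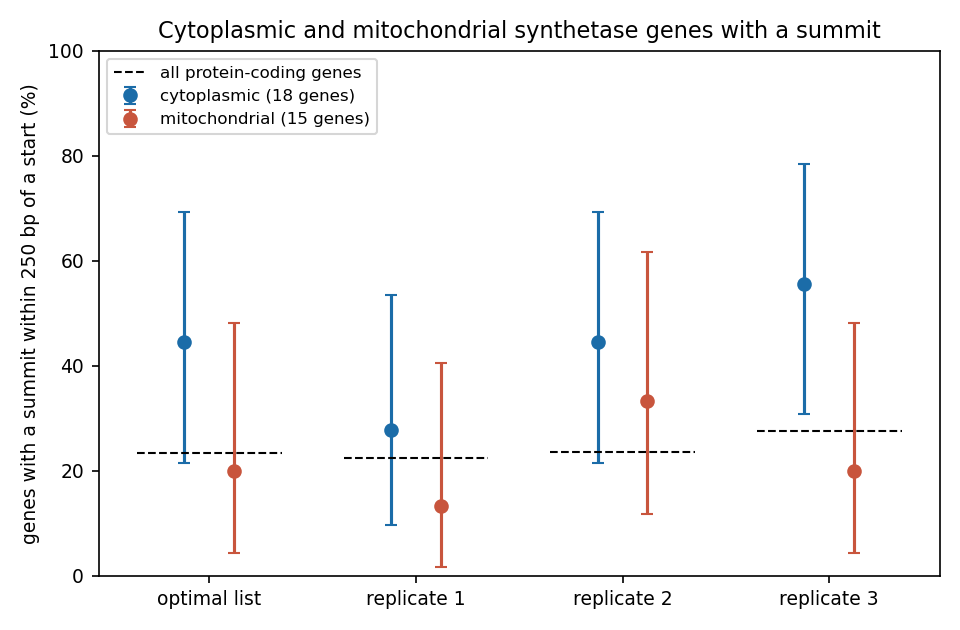
Share of synthetase genes with a summit within 250 bp of a start (%), by list, for cytoplasmic and mitochondrial enzymes, with exact 95% intervals as error bars and the share over all protein-coding genes as a dashed line. In replicates 1 to 3 the cytoplasmic share was 27.8%, 44.4% and 55.6%, each above the mitochondrial share of the same replicate.

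The 3 strongest peaks of the family were at cytoplasmic enzymes. SerRS, which charges tRNA with serine, had the strongest, at chr2L:3037222-3037550, with a signal of 869 and rank 605. Signal is the authors' value for the height of a peak and is read only within a list. Its summit fell 15 bp inside the gene, in an untranslated exon of SerRS that lies in an intron of CG17260, whose start was 23 bp from the summit. SerRS had rank 357 in replicate 2 (signal 405) and rank 768 in replicate 3 (signal 283), but no entry at its start in replicate 1. Of the 605 strongest optimal peaks, 3 lacked an entry of replicate 1 within 1000 bp, 1 lacked one of replicate 2 and 0 lacked one of replicate 3.

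IleRS and ThrRS, the enzymes for isoleucine and threonine, had almost equal peaks that all replicates shared. The IleRS peak lay at chr3L:22288343-22288643, with a signal of 785 and rank 735, and its summit was 162 bp upstream of the gene and 308 bp from the start of Hem, a subunit of the WAVE complex that regulates actin. IleRS ranked 777, 691 and 906 in replicates 1, 2 and 3, with signals of 240, 288 and 259. The ThrRS peak lay at chr2L:12103379-12103732, with a signal of 785 and rank 737, and its summit was 199 bp upstream of the gene and 267 bp from the start of Patsas. ThrRS ranked 889, 795 and 701 in replicates 1, 2 and 3, with signals of 224, 267 and 297. Both genes thus stayed among the first 1000 entries of every replicate.

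GluProRS, the bifunctional enzyme, had a peak at chr3R:23958305-23958760 with a signal of 633 and rank 1121. The summit was 142 bp upstream of GluProRS but 118 bp from the start of AP-1sigma, a subunit of a clathrin adaptor, so it lay nearer to the neighbour. GluProRS ranked 3316, 731 and 1099 in replicates 1, 2 and 3, with signals of 107, 282 and 238. AsnRS, the enzyme for asparagine, had a peak at chr2L:19131831-19132286 with a signal of 366 and rank 2750, and its summit was 105 bp upstream of the gene. AsnRS ranked 8994, 1922 and 2312 in replicates 1, 2 and 3, with signals of 53.0, 161 and 157. At both genes replicate 1 was the low one, and at AsnRS it fell below the 8131 strongest entries.

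The other 3 cytoplasmic genes had peaks in the weaker part of the optimal list. GlyRS had a signal of 241 (chr3L:15094792-15095247, rank 4792), with its summit 122 bp upstream. GlyRS ranked 6835, 4918 and 5417 in replicates 1, 2 and 3. HisRS had a signal of 231 (chrX:18515129-18515584, rank 5073), with its summit 71 bp upstream of a start that HisRS shares with Bx, a LIM-domain protein of wing development, so the peak cannot be given to either gene. HisRS ranked 12297, 5011 and 3516, and a second optimal peak (chrX:18515973-18516428, rank 6888, signal 178) lay 773 bp inside the gene. AlaRS had a signal of 210 (chr2L:8381651-8382106, rank 5713), with its summit 115 bp upstream, in an untranslated exon of CG13392. AlaRS ranked 8813, 7255 and 4418. Of these genes only GlyRS had an entry among the 8131 strongest in all 3 replicates.

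All 3 mitochondrial peaks ranked below the 5 strongest cytoplasmic ones. ArgRS-m, for mitochondrial arginine tRNA, had a peak at chr3R:7886706-7887161 with a signal of 355 and rank 2860, and its summit was 111 bp upstream of the gene and 201 bp from CG17816. ArgRS-m ranked 2733, 3159 and 3625 in replicates 1, 2 and 3, with signals of 119, 113 and 118, and was the mitochondrial gene that all 3 replicates held among their strongest entries. LeuRS-m, for leucine, had a peak at chr3L:4825531-4825986 with a signal of 333 and rank 3119. Its summit was 94 bp upstream of LeuRS-m but 72 bp from Dhc64C, the heavy chain of cytoplasmic dynein. LeuRS-m ranked 8196, 2407 and 3103, with signals of 57.0, 138 and 131. A stronger optimal peak (chr3L:4824779-4825144, rank 404, signal 1062) lay 913 bp upstream of LeuRS-m and did not count for it. ProRS-m, for proline, had a peak at chr3L:2651742-2652197 with a signal of 201 and rank 6000, and its summit was 120 bp upstream of ProRS-m and 118 bp from the starts of CG42304 and Snup. ProRS-m ranked 8144, 5723 and 6061, with signals of 57.3, 69.3 and 80.8. Counted by the nearest start alone, ArgRS-m was the 1 mitochondrial gene left (of 15, 6.67%), while 7 of 18 cytoplasmic genes were left (38.9%), against 19.75% of all genes.

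**Figure D2:**
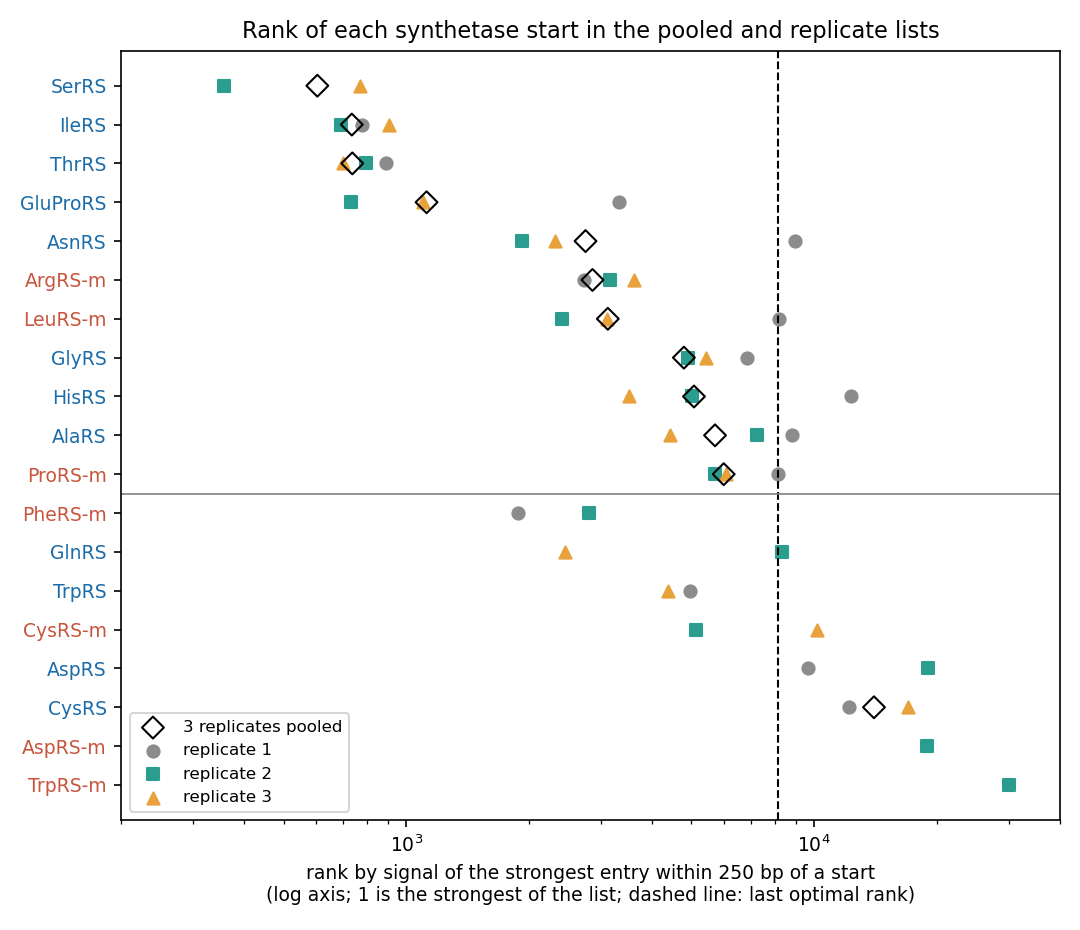
Rank by signal of the strongest entry within 250 bp of a start (log axis, rank 1 is the strongest) in the pooled list and the 3 replicate lists, for the 19 synthetase genes with any entry; the horizontal line parts the 11 with an optimal summit from the rest, and the dashed line marks rank 8131, the last optimal rank. IleRS and ThrRS stayed under rank 1000 in every replicate, SerRS has no point for replicate 1, and PheRS-m, TrpRS and GlnRS have replicate points but no pooled one.

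Across the 11 genes the optimal signal had a median of 355 and ran from 201 to 869, beside a median of 348 over the 3260 protein-coding genes with a summit. The cytoplasmic median was 499 (n = 8, from 210 to 869) and the mitochondrial one was 333 (n = 3, from 201 to 355), so the ranges overlapped. Replicate 1 gave the lowest rank at 8 of the 10 genes with an entry in all replicates (80%), and at 47.3% of the 2783 such genes in the series. All 3 replicates held 5 of the 11 genes (45.5%) among their strongest entries, against 64.0% of all genes with an optimal summit, and exactly 2 replicates held the other 6 (54.5%, against 27.2%). The part of library depth in these ranks was not tested, since the lists hold no read counts.

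The summits sat a short way upstream. Of 11 summits, 10 (90.9%) lay upstream of the start, against 83.3% over all genes with a summit, and the median position was -115 bp, against -86 bp. Positions ran from -199 bp at ThrRS to 15 bp inside SerRS. Between genes lay 9 of the 11 summits, a count that was not made over all genes. Nearer to a neighbouring gene than to the synthetase gene were 3, those at GluProRS, LeuRS-m and ProRS-m. The nearest start alone thus kept 8 of the 11 synthetase genes, and it kept 2754 of 3260 in the whole series. Replicate summits of the same gene could lie far apart. At ArgRS-m they lay 175, 74 and 67 bp upstream in replicates 1, 2 and 3, and at HisRS the summit of replicate 1 lay 17 bp inside the gene while the others lay 71 and 74 bp upstream. At GluProRS replicate 3 stood apart, with summits 136, 131 and 198 bp upstream in replicates 1, 2 and 3.

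**Figure D3:**
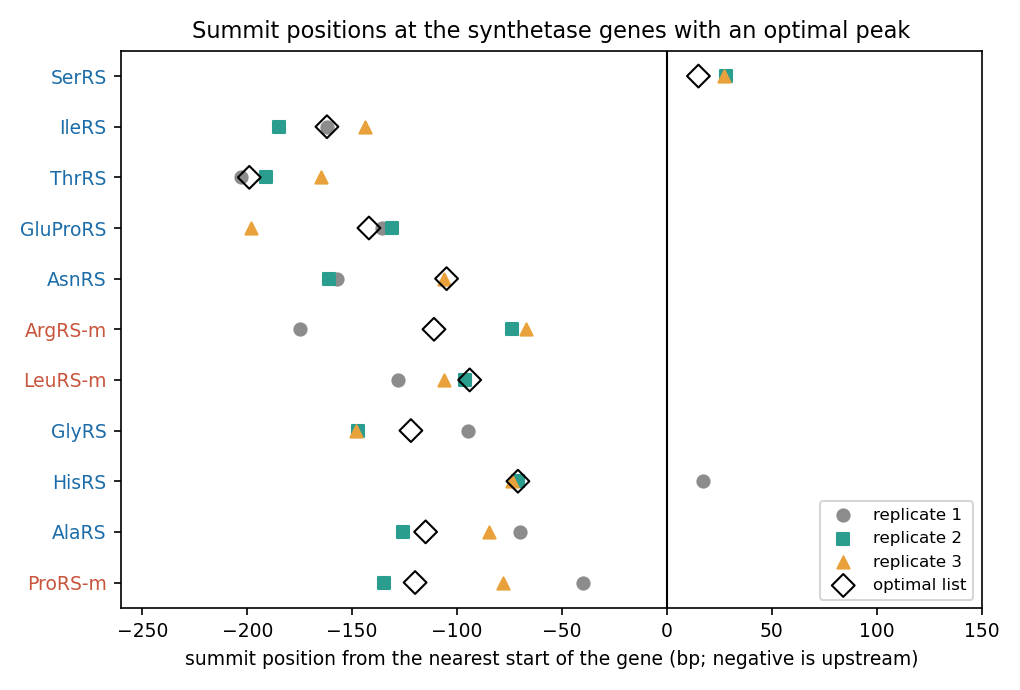
Position of the summit relative to the nearest start of each synthetase gene (bp, negative is upstream) in the optimal list and in each replicate. The optimal summits run from -199 bp at ThrRS to 15 bp at SerRS. Replicate 1 is displaced from the others at HisRS and ArgRS-m, and replicate 3 at GluProRS.

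Divergent gene pairs were common in the family. A head-to-head partner, a protein-coding gene on the opposite strand starting within 500 bp upstream, was annotated for 21 of 33 synthetase genes (63.6%), against 27.4% of all protein-coding genes. The count was 14 of 18 (77.8%) for cytoplasmic and 7 of 15 (46.7%) for mitochondrial genes. With partners within 250 bp only, 13 of 33 genes (39.4%) had one, against 14.2% of all genes, and the cytoplasmic share was no longer the higher, with 7 of 18 cytoplasmic (38.9%) and 6 of 15 mitochondrial genes (40%). An optimal summit was present at 9 of the 21 genes with a partner (42.9%, interval 21.8% to 66.0%), against 39.2% of all genes with one. Without a partner it was 2 of 12 (16.7%, interval 2.09% to 48.4%), HisRS and AlaRS, against 17.4%. Both shares lay close to those of all genes of the same arrangement. With a partner, cytoplasmic genes (6 of 14) and mitochondrial genes (3 of 7) had the same share, 42.9%. Without one, 2 of 4 cytoplasmic and 0 of 8 mitochondrial genes had a summit, which for the latter allows a share of up to 36.9% by the exact interval.

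The distance to the partner was looked at after the values were seen, so the split is a description. At a partner within 250 bp, 3 of 13 synthetase genes had a summit (23.1%, interval 5.04% to 53.8%), against 37.0% of all such genes. At a partner beyond 250 and within 500 bp it was 6 of 8 (75%, interval 34.9% to 96.8%), against 41.6%. Both intervals include the share of all genes. The 3 with a close partner were SerRS (CG17260 starts 8 bp away), LeuRS-m (Dhc64C, 166 bp) and ProRS-m (CG42304 and Snup, 238 bp). Those with a wider gap were GluProRS (260 bp), ArgRS-m (312 bp), AsnRS (369 bp), GlyRS (418 bp), ThrRS (466 bp) and IleRS (470 bp). The partners of GlyRS were the centrosomal gene Plp and sstn, and 418 bp is the distance to the nearer one. ArgRS (331 bp from CG8578) and TyrRS (295 bp from CG33158) had no entry in any list.

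**Figure D4:**
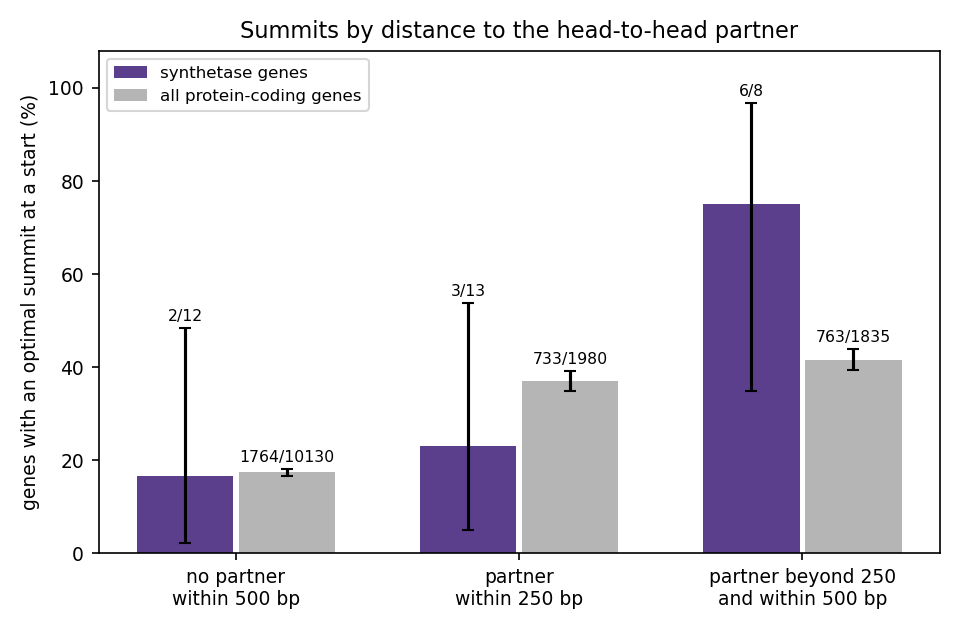
Share of genes with an optimal summit at a start (%), by distance to the head-to-head partner, for synthetase genes and for all protein-coding genes; error bars are exact 95% intervals and counts stand above them. The synthetase bars are 16.7%, 23.1% and 75%, and each of their intervals includes the share of all genes.

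The promoters, taken as 250 bases before to 50 after a start, were searched for the 6 sequences named above. The DRE and both E-boxes read alike on both strands and were counted once per site. The E-box CAGCTG was in 16 of 33 synthetase promoters (48.5%), against 17.7% of all promoters. It was about as frequent in cytoplasmic (9 of 18, 50%) as in mitochondrial genes (7 of 15, 46.7%), and in 6 of the 11 genes with an optimal summit (54.5%). Within 100 bp of a summit, however, it was in 1 of 11 synthetase peaks (9.09%), that of IleRS, against 14.4% of the 2985 optimal peaks at protein-coding starts. It was centred just past that window at HisRS (104 bp from the summit) and LeuRS-m (106 bp). At ArgRS-m, SerRS and GluProRS it was 134, 141 and 173 bp away. The high share of CAGCTG was thus seen in the promoter windows, which are longer than the summit windows, and not within 100 bp of the summits.

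The DRE, the site of the promoter factor DREF, was in 5 promoters (15.2%, against 9.37%), those of AlaRS, ArgRS, IleRS, PheRS-m and TrpRS. The sequence of M1BP, another promoter factor, was in 4 (12.1%, against 6.05%), those of AsnRS-m, AspRS-m, GlnRS and ProRS-m. A whole match to either lay in none of the 11 windows reaching 100 bp to each side of a synthetase summit (against 8.31% and 6.43% of peaks at starts). The DRE of AlaRS, centred 100 bp from the summit, straddled the edge of that window, and the DRE of IleRS was centred 123 bp away. The Myc E-box CACGTG was in 2 promoters (6.06%, against 4.24%) and at 1 summit, that of LeuRS-m. The amino acid response element, which in mammals is bound by ATF4, was in 1 promoter (3.03%, against 4.10%), that of CysRS, and in 5 (15.2%, against 7.05%) when 250 bases on each side were searched. TATAAA was in 18 promoters (54.5%, against 45.9%) and within 100 bp of 7 of 11 summits (63.6%), against 29.3% of peaks at starts. Base composition moved with this count. The windows around synthetase summits had a median GC content of 28.9% (n = 11, from 20.4% to 46.3%), against 39.3% over all 2985, and the part of composition in the TATAAA count was not tested.

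Without an optimal summit at a start were 22 genes, 10 cytoplasmic and 12 mitochondrial. Their nearest optimal summit lay from 483 bp to 36168 bp away, with a median of 6408 bp, and beyond 1000 bp for 21 of them. Just outside the window was ValRS, with a summit 483 bp upstream (chr2R:13198303-13198482, signal 314, rank 3418) that ranked 3152, 3800 and 3461 in replicates 1, 2 and 3. Just inside was ThrRS at 199 bp. CysRS had the only pooled entry at a start outside the optimal list, 65 bp upstream, at rank 14014 with a signal of 92.3. CysRS ranked 12158 in replicate 1 and 16990 in replicate 3.

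Several of these genes had entries in replicates but no pooled entry within 250 bp of a start. PheRS-m ranked 1875 in replicate 1 (71 bp upstream, signal 149) and 2808 in replicate 2 (91 bp upstream, signal 124), higher than ArgRS-m in both, yet its nearest pooled entry was 1892 bp away. TrpRS ranked 4959 in replicate 1 (85 bp upstream, signal 82.2) and 4386 in replicate 3 (67 bp upstream, signal 104), with the nearest pooled entry 6309 bp away. GlnRS ranked 8355 in replicate 2 and 2452 in replicate 3, at 71 and 70 bp upstream. CysRS-m ranked 5125 in replicate 2 and 10152 in replicate 3, at 156 and 91 bp upstream. AspRS ranked 9669 in replicate 1 and 18995 in replicate 2, with a pooled entry of rank 11754 at 299 bp. Such sites occurred across the series. At any rank, 5350 genes had an entry in at least 2 replicates, and 697 of them (13.03%) had no pooled entry within 250 bp of a start. Among the synthetase genes these were 5 of 17, the 5 just named. Of 3403 genes with a strong entry in at least 2 replicates, 335 (9.84%) had no such pooled entry. Among the synthetase genes these were 2 of 13, PheRS-m and TrpRS. How the pooled list was filtered is not given in the sources used here.

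AspRS-m was listed in replicate 2 alone (rank 18912), as was TrpRS-m (rank 29969). No list held an entry at a start of the remaining 14 genes, 6 cytoplasmic and 8 mitochondrial. The same count was not made over all protein-coding genes, so the 14 are given as a listing only. The cytoplasmic ones were ValRS, TyrRS, LysRS, LeuRS, ArgRS and MetRS, and their nearest optimal summit was 483 bp away at ValRS, 4703 bp at MetRS, 6803 bp at TyrRS, 8537 bp at LysRS, 16509 bp at ArgRS and 36168 bp at LeuRS. For the mitochondrial ones it was 2641 bp at SerRS-m, 4678 bp at GluRS-m, 6507 bp at AlaRS-m, 10122 bp at TyrRS-m, 11209 bp at ValRS-m, 12722 bp at IleRS-m, 18112 bp at MetRS-m and 25144 bp at AsnRS-m. Among the genes with weak or partial entries it was 1447 bp at AspRS, 2100 bp at PheRS-m, 3096 bp at GlnRS, 3185 bp at TrpRS-m, 3644 bp at CysRS-m, 3742 bp at CysRS, 6309 bp at TrpRS and 7191 bp at AspRS-m. The peak nearest to AspRS (chr2R:12878609-12879064, rank 4748, signal 243) lay in an intron of AspRS and in an untranslated exon of Nmda1, a glutamate receptor subunit. The arm 2R carried 8 synthetase genes, 4 cytoplasmic and 4 mitochondrial, and 0 of 8 had an optimal summit at a start (exact interval 0% to 36.9%). Over all protein-coding genes on that arm the share was 23.6%, which the interval includes. Elsewhere it was 4 of 6 on 2L (against 22.9%), 4 of 10 on 3L (against 24.75%), 2 of 6 on 3R (against 23.8%) and 1 of 3 on X (against 21.9%). The split by arm is a description.

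The proteins that work with the synthetases were read from a list of 21 genes, and 5 of them (23.8%) had an optimal summit at a start, close to the 23.4% of all protein-coding genes. Of these, 3 act in elongation: eEF1gamma (signal 1770, rank 138) and eEF1alpha1 (signal 766, rank 773), which with its partners carries charged tRNA to the ribosome, and mEFTs (signal 232, rank 5050), the exchange factor of mitochondrial elongation. GatA (signal 698, rank 948), a subunit of the enzyme that makes glutaminyl-tRNA in mitochondria, had its summit 102 bp upstream but 28 bp from P5cr, an enzyme of proline synthesis. Thor (signal 675, rank 1006) encodes the inhibitor of translation initiation 4E-BP. The eEF1gamma peak was stronger than that of any synthetase gene. The 2 subunits of cytoplasmic PheRS have symbols outside the naming rule: alpha-PheRS had no entry, and beta-PheRS ranked 756 in replicate 2 and 623 in replicate 3, with no pooled entry at its start. Of the 3 scaffold genes of the multi-synthetase complex, none had an optimal summit, and AIMP1 ranked 3067 and 2570 in replicates 2 and 3.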

How the data were processed

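Hmr-GFP was mapped by ChIP-seq in 3 biological replicates of whole embryos, grouped and numbered by their labels. The authors deposited peak lists in narrowPeak form for dm6 and dm3, and the dm6 lists were used. Per the text files deposited beside them, each replicate and the pool had a relaxed list of peaks and background, and the optimal list passed a threshold on the irreproducible discovery rate. The signal value of each peak is the authors' own and was used only to rank and describe entries within a list. Which caller, threshold and aligner were used is not given in the sources used here. Depth is unknown, so no count test could be made.

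Summits come from column 10. A gene matched a list when a summit lay within 250 bp of any of its transcript starts in Ensembl release 115 (Release 6 genome). All 33 symbols were also found in the RefSeq gene table. Replicate lists were read by their 8131 strongest entries, as many as the optimal list holds. Each share has an exact 95% interval (Clopper-Pearson), genes are not independent samples, and no test was made over genes. Every synthetase gene with an optimal summit is named, and those without one with their distance. The synthetase genes, the 21 related genes and the 6 sequences were chosen with earlier results of these data known. On simulated lists the matching recovered 200 of 200 planted summits over 13945 genes. Python 3.11.15, numpy 2.4.6, pandas 2.3.3, scipy 1.17.1 and matplotlib 3.10.9 were used.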

Additional observations from a re-analysis of the deposited data

How the results depend on the processing

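The share of synthetase genes with an optimal summit, above that of all protein-coding genes at the reported settings, fell below it under 3 alternatives: starts within 100 bp (3 genes, 9.09% against 13.4%; 2 cytoplasmic, 1 mitochondrial), without replicate 2 (5 genes, 15.2% against 18.2%) and without replicate 3 (5 genes, 15.2% against 16.0%). Without replicate 1 it was 11 genes (33.3% against 18.5%). For these counts, the settings without 1 replicate kept the optimal list of all 3 replicates and only asked for a match in both others. Cytoplasmic counts without 1 replicate ran from 4 to 8 and mitochondrial ones from 1 to 3, and the cause was not tested. Above-median peaks gave 7 genes (21.2% against 15.2%; 5 cytoplasmic) and the nearest start 8 (24.2% against 19.75%; 1 mitochondrial). It was 12 genes (36.4%) at 500 bp (against 28.1%) and at 1000 bp (against 31.8%), and 9 (27.3% against 20.1%) for starts inside the peak. The median signal was 333 at 100 bp (against 301 over all protein-coding genes) and for starts inside the peak (against 314.5). It was 344 at 500 bp (against 362), 361 at 1000 bp (against 367) and by the nearest start (against 325), and 633 above the median (against 491). Without replicate 1 it was 355 (against 422), and without replicate 2 or 3 it was 633 (against 416 and 458). With partners within 250 bp, 13 genes (39.4% against 14.2%) had one, and the cytoplasmic share (38.9%) was no longer above the mitochondrial one (40%). The mean cytoplasmic minus mitochondrial difference over replicates stayed positive. It ran from 3.33 percentage points at 100 bp (exact permutation p = 0.75, n = 3) to 29.6 at 500 bp, and from 12.8 to 25 without 1 replicate. At 100 bp the cytoplasmic share was not the higher in every replicate, since 3 differences of 1 sign give p = 0.25 in this permutation test. The count by at least 2 replicates was added after seeing the data and gave 13, 9 and 4 genes (39.4% in all, against 24.4%).

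With 1 group of samples, there was no contrast between groups to block by replicate, and the cytoplasmic and mitochondrial shares were paired within each replicate. Unknown depth, 33 genes and 3 replicates limit every count.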

Other observations

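Synthetases fall into 2 families by the fold of their catalytic domain, class I and class II, which arose separately. This division was looked at after the values were seen, so no test was made. Among cytoplasmic genes, 6 of 8 of class II (75%, exact 95% interval 34.9% to 96.8%) had an optimal summit at a start, all but AspRS and LysRS. Of the 9 of class I, 1 had one (11.1%, interval 0.281% to 48.3%), IleRS. GluProRS holds a domain of each class and had one. Over all protein-coding genes the share was 23.4%. In the separate replicates, class II against class I counted 2 of 8 and 2 of 9 in replicate 1, 6 of 8 and 1 of 9 in replicate 2, and 6 of 8 and 3 of 9 in replicate 3, beside 22.4%, 23.5% and 27.6% of all protein-coding genes, so replicate 1 did not show the split. The mitochondrial genes did not show it either, with 1 of 6 of class II and 2 of 9 of class I.

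Top entries of single replicates with no pooled entry within 500 bp were 193 of 8131 (2.37%) in replicate 1, 467 (5.74%) in replicate 2 and 559 (6.88%) in replicate 3.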
